A study of Homo sapiens with 9 samples.

Results

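The genes described here are receptors, ligands and target genes of the Notch pathway in LN229, an established human glioblastoma cell line. They were taken by symbol from a list of 10 genes, and 9 of them had a row among the 19356 genes of the table: the receptor genes NOTCH1, NOTCH2 and NOTCH3, the ligand genes JAG1, JAG2 and DLL1, and the target genes HES1, HEY1 and NRARP. HEYL is not analysed here. All 9 passed the filter on low values, a mean of 10 or more after taking antilogs. Polyadenylated RNA was sequenced in 3 groups of 3 libraries, namely wild-type cells (WT) and the ARNT2 knockout lines B3 and C4, made by CRISPR. All cells were kept in DMEM with 5% FBS at 37 °C and 5% CO2. ARNT2 is a bHLH-PAS transcription factor, and the study addressed its role in how these tumour cells multiply and mature. The labels do not say whether each knockout line grew from a single cell or whether the samples of a group were separate cultures, so the error behind every p-value is the variation among these libraries and could be technical only.

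Notch receptors are membrane proteins that bind Jagged and Delta ligands on neighbouring cells. Binding leads to cleavage of the receptor, first by an ADAM protease and then by gamma-secretase, and the released intracellular domain enters the nucleus and joins the DNA-binding protein RBPJ and a Mastermind coactivator. The HES and HEY genes, which encode bHLH repressors, and NRARP, which encodes a feedback inhibitor, are well-known targets. In the nervous system the pathway is known for keeping progenitor cells from differentiating into neurons.

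The targeted gene checked the labels: ARNT2 lay between 13.56 and 13.59 in WT, 11.86 and 11.91 in B3 and 12.05 and 12.22 in C4, on the deposited log2 scale. Each library's median was between 10.62 and 10.65, and the read depth is unknown. Of the 16457 genes tested, limma called 7876 in B3 and 9244 in C4 against WT, so a call alone is common in these data. Equal library totals made 64.2% of called genes higher in B3, against 48.5% with the deposited scaling, and 61.5% were higher in C4, against 50.2%. Library medians set equal gave 55.2% in B3 and 60.8% in C4, and quantile normalization gave 55.5% in B3 and 54% in C4. The glioma genes CD44, S100B and NES had WT means of 16.51, 16.18 and 15.39, and SOX2 had 12.22, while the astrocyte filament gene GFAP was low at 6.63. Markers of other cells spanned wide ranges of WT means: the 6 immune genes ran from 1.87 for CD3E and 2.37 for PTPRC to 10.70 for CD68, and the 7 endothelial genes from 2.44 for TEK to 8.92 for VWF. The 6 epithelial genes ran from 5.76 for CDH1 to 12.56 for KRT8 and 14.03 for KRT18. The summed immune level was 10.81 to 10.85 in WT, 11.05 to 11.09 in B3 and 10.83 to 10.84 in C4. Most of it came from CD68 (means 10.70, 10.97 and 10.69). In the same order, PTPRC was at 2.37, 2.38 and 2.35, CD3E at 1.87, 1.87 and 1.89 and CD14 at 3.98, 3.96 and 4.03. ITGAM was at 5.34, 5.33 and 5.31 and LYZ at 6.50, 6.46 and 6.74. The epithelial sum was 14.41 to 14.56 in WT, 14.08 to 14.15 in B3 and 14.44 to 14.49 in C4, most of it from KRT18 (14.03, 13.71 and 14.00). No marker was at 0, and their part in the results was not tested.

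The promoter windows of JAG1, NOTCH3 and HES1 are shown because these genes carry the main contrast of the results: JAG1 and NOTCH3 fell in both knockout lines while HES1 did not pass the test in either. Each is the 250 bases before the gene's start in RefSeq on GRCh38.p14, 5′ to 3′ on the gene's strand, and 7 of the 9 genes had an entry (HEY1 and DLL1 had none). Capitals mark TGGGAA, the core read by RBPJ, and ACGTG, a core bound by many bHLH-PAS dimers. Both strands were searched, and ACGTG also lies within the E-box CACGTG, which was searched too.
JAG1: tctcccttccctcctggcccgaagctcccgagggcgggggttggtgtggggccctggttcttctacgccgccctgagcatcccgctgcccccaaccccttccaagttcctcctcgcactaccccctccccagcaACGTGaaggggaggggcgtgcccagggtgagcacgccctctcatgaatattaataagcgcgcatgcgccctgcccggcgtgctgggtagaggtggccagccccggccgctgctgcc
NOTCH3: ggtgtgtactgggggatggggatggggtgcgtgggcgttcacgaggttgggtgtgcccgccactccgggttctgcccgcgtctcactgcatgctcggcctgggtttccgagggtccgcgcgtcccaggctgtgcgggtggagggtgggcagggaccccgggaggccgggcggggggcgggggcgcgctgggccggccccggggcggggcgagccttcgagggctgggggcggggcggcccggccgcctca
HES1: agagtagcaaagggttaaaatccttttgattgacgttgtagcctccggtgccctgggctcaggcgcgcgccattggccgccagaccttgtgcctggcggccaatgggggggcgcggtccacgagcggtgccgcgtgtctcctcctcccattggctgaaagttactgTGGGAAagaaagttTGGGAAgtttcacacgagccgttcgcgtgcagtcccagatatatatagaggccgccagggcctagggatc
The JAG1 window is chr20:10674000-10674249 on the minus strand, that of NOTCH3 is chr19:15200996-15201245 on the minus strand, and that of HES1 is chr3:194135898-194136147 on the plus strand. HES1 held TGGGAA at 84 and 70 bases before the start. Among 27305 promoters of the same length, 21.1% held TGGGAA at least once and 2.92% held it 2 or more times. JAG1 held 1 ACGTG, at 116 bases before the start, and 18.7% of promoters held one. None of the 7 windows held CACGTG, against 6.49% of all promoters. The other 4 windows, of NOTCH1, NOTCH2, JAG2 and NRARP, and that of NOTCH3, held none of the 3 motifs. These matches are letters in a short window and were not tested for binding.

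Levels spanned a wide range in wild-type cells. Per kilobase of exons in GENCODE 29, which sets genes of different length on 1 scale, the mean log2 value in WT was highest for HES1 at 11.51 ± 0.03 (SD, n = 3). NOTCH2 followed at 10.49 ± 0.07, NOTCH1 at 9.78 ± 0.06, HEY1 at 9.45 ± 0.07, JAG1 at 9.01 ± 0.08 and NOTCH3 at 7.89 ± 0.04 (SD, n = 3 each). NRARP at 5.57 ± 0.06, JAG2 at 2.69 ± 0.07 and DLL1 at 1.94 ± 0.02 (SD, n = 3 each) were far lower. Every gap between neighbours in this order was larger than the SDs. The values look like a transform that draws weakly expressed genes towards their own mean, in which case changes of DLL1, JAG2 and NRARP are understated. In B3, HEY1 at 9.89 ± 0.04 stood above NOTCH1 at 9.69 ± 0.03 (SD, n = 3 each), and in C4 NOTCH1 at 9.80 ± 0.07 stood above HEY1 at 9.31 ± 0.06 (SD, n = 3 each), as in WT.

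The knockout lines both had less RNA of the ligand gene JAG1 and the receptor gene NOTCH3. In B3 against WT, limma called 4 of the 9 Notch genes, with HEY1 higher and JAG1, NOTCH3 and NOTCH1 lower. That is 44.4%, where 47.9% of all genes tested were called, 23.2% higher and 24.6% lower. In C4 against WT, 5 of 9 were called (55.6%, against 56.2% of all genes): NOTCH2 was higher and JAG1, NOTCH3, NRARP and HEY1 were lower. Over all genes 28.2% were called higher and 28.0% lower in C4. The share of Notch genes called was thus near the share of all genes in both comparisons, and the sizes of the single changes carry the description that follows. The median absolute change of the 9 genes was 0.06 in B3 and 0.13 in C4, where all genes had 0.07 and 0.09. Both comparisons use the same WT libraries. In bulk RNA, fewer cells with a gene's RNA and less RNA per cell cannot be told apart.

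**Figure D1:**
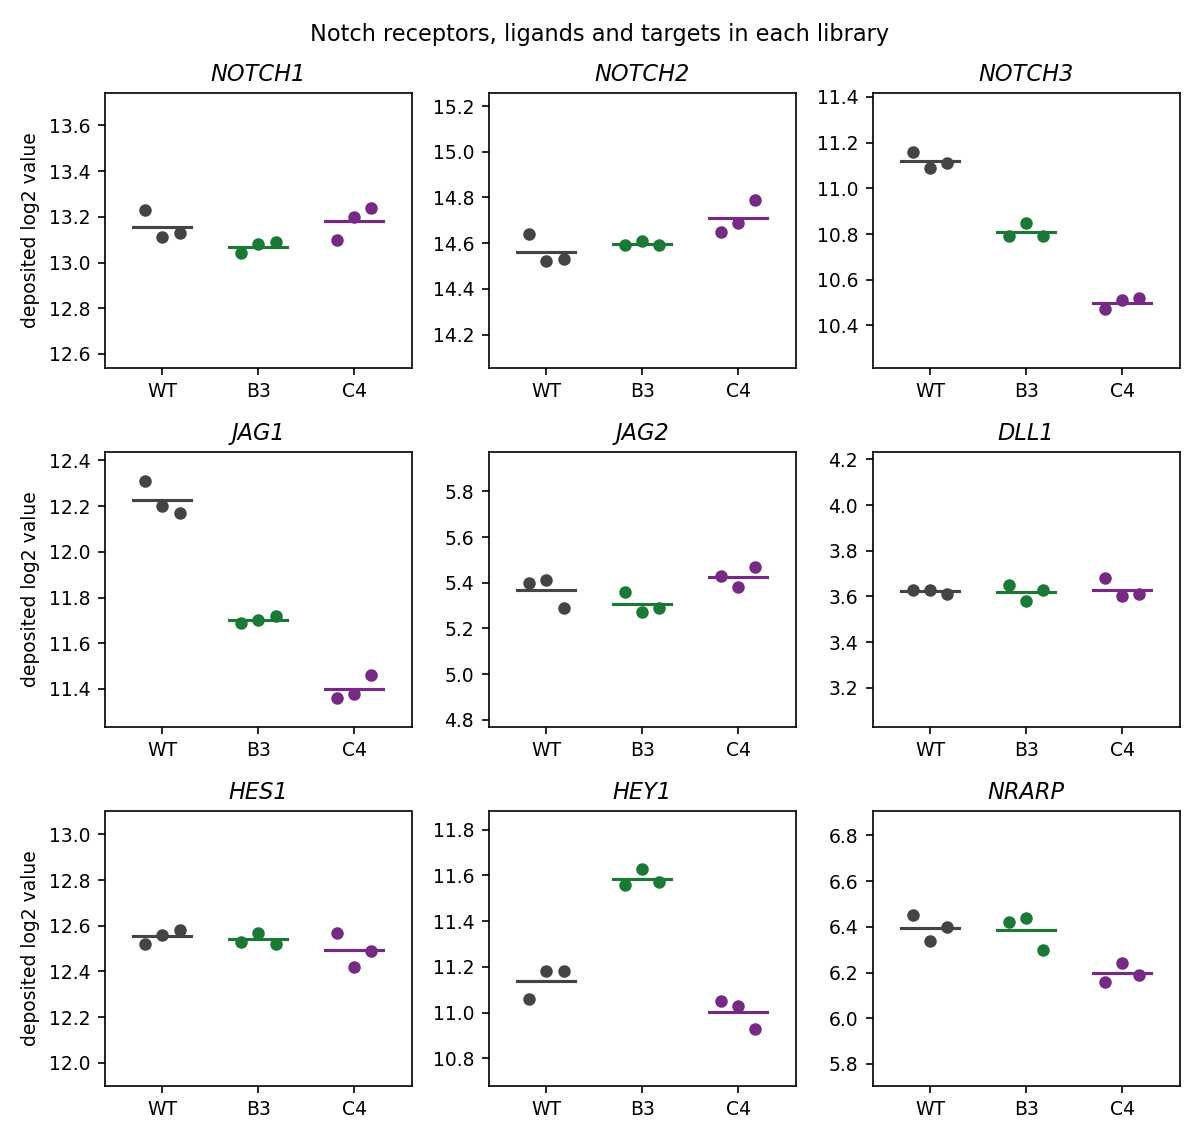
Deposited log2 value of each Notch gene (vertical axis, each panel spanning 1.2 log2 units) in the 3 libraries of WT, B3 and C4 (dots), with the group mean as a line. JAG1 and NOTCH3 step down from WT to B3 to C4, HEY1 is high in B3, and HES1 lies between 12.42 and 12.58 in all 9 libraries.

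Among the ligand genes, JAG1 had the largest change of the set. JAG1 encodes Jagged-1, a transmembrane ligand of the Notch receptors (ENSG00000101384.12, chromosome 20, 10637684 to 10673999 on the minus strand, GRCh38). Its log2 values were 12.31, 12.20 and 12.17 in WT, 11.69, 11.70 and 11.72 in B3, and 11.36, 11.38 and 11.46 in C4. The 3 groups did not overlap, with WT highest and C4 lowest. JAG1 changed by -0.52 ± 0.03 (log2, SE, n = 3 per group) in B3, with limma adjusted p = 2.28e-11, which is 69.7% of the WT level (95% interval 66.2% to 73.2%). In C4 it changed by -0.83 ± 0.03, adjusted p = 2.16e-15, or 56.4% of WT (53.7% to 59.3%). The difference between the lines was -0.30 ± 0.03, adjusted p = 9.13e-08. An antisense gene, AL050403.2, shares 79 bases with JAG1 exons, 0.85% of them, and whether the counting used strand is not given in the sources used here. Jagged-1 is also made by endothelial cells, and the summed log2 level of the 7 endothelial markers was 9.60 to 9.71 in WT, 9.39 to 9.43 in B3 and 9.61 to 9.67 in C4. Most of it came from VWF (means 8.92, 8.51 and 8.87). In the same order, ESAM was at 7.20, 7.05 and 7.28, KDR at 6.30, 6.42 and 6.42 and PECAM1 at 5.43, 5.32 and 5.20. TIE1 was at 4.93, 4.88 and 4.87, CLDN5 at 4.38, 4.36 and 4.35 and TEK at 2.44, 2.45 and 2.43. The part of these markers in the JAG1 result was not tested.

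JAG2 and DLL1 were at low levels. JAG2, the other Jagged ligand gene (ENSG00000184916.8, chromosome 14, 105140981 to 105168824), had log2 values of 5.40, 5.41 and 5.29 in WT, 5.36, 5.27 and 5.29 in B3 and 5.43, 5.38 and 5.47 in C4. Each knockout group overlapped with WT, and limma did not call JAG2 in B3 (-0.06, 95% interval -0.13 to 0.02, adjusted p = 0.184) or in C4 (0.06, -0.02 to 0.13, adjusted p = 0.189). It was called in B3 without WT replicate 3 (adjusted p = 0.0399; alternatives 0.0399 to 0.563). In C4 it was called with every library at the same total, at 0.0486 in a range of 0.0486 to 0.695. Between the lines JAG2 was higher in C4, by 0.12 ± 0.04 (adjusted p = 0.00825), and those groups did not overlap. Its exons share 469 bases, 7.33%, with the same-strand transcript AL512356.1, so some reads may belong to that transcript. DLL1, a Delta ligand gene (ENSG00000198719.8, chromosome 6, 170282206 to 170306565), stayed between 3.58 and 3.68 in all 9 libraries. No comparison called it (adjusted p = 0.896, 0.879 and 0.759 for B3, C4 and the difference), and the intervals reached from -0.05 to 0.06. At a mean antilog of 12.3, just above the filter, a larger relative change could go unseen if the transform draws low values together.

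The receptor genes went different ways. NOTCH3 (ENSG00000074181.8, chromosome 19, 15159038 to 15200981), the receptor best known from pericytes and vascular smooth muscle, had log2 values of 11.16, 11.09 and 11.11 in WT, 10.79, 10.85 and 10.79 in B3, and 10.47, 10.51 and 10.52 in C4. As for JAG1, the groups did not overlap and C4 was lowest. NOTCH3 changed by -0.30 ± 0.04 (log2, SE, n = 3 per group) in B3, limma adjusted p = 2.21e-07, which is 81.0% of WT (76.9% to 85.2%). In C4 it changed by -0.62 ± 0.04, adjusted p = 7.15e-13, or 65.2% of WT (61.9% to 68.6%), and the lines differed by -0.31 ± 0.04, adjusted p = 8.05e-08. Of the 8 pericyte and smooth muscle markers, 7 were tested. In B3, 4 were lower and 0 higher, where 24.6% of all genes were lower and 23.2% higher. In C4, 2 were lower and 2 higher, where the shares of all genes were 28.0% and 28.2%. The summed log2 level of the 8 markers was 17.48 to 17.52 in WT, 16.95 to 17.02 in B3 and 16.86 to 16.94 in C4. Most of it came from CSPG4, which many gliomas also express (17.43, 16.91 and 16.78 on average). PDGFRB had means of 10.61 in WT, 10.49 in B3 and 10.38 in C4, the order of NOTCH3. RGS5 was at 11.56, 10.35 and 11.66 and KCNJ8 at 9.01, 8.75 and 9.25, each lowest in B3. ACTA2 was at 11.97, 11.91 and 11.91 and MYH11 at 6.96, 6.98 and 7.10, while DES (4.46, 4.44 and 4.48) and ABCC9 (1.01, 1.02 and 1.00) were low in all groups, and none was at 0. Their part in the NOTCH3 result was not tested.

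NOTCH1 and NOTCH2 were the abundant receptors and moved little. NOTCH1 (ENSG00000148400.10, chromosome 9, 136494433 to 136545786) had log2 values of 13.23, 13.11 and 13.13 in WT, 13.04, 13.08 and 13.09 in B3 and 13.10, 13.20 and 13.24 in C4. B3 lay below the other groups, and WT and C4 overlapped. The change in B3 was -0.09 ± 0.03 (SE, n = 3 per group), limma adjusted p = 0.0266, a level of 94.0% of WT. That call ended without WT replicate 1 (0.167), B3 replicate 1 (0.104) or B3 replicate 2 (0.0520), with every library at the same total (0.178) or the same median (0.0557), and with no intensity trend (0.0822), in a range of 0.0117 to 0.178. In C4 NOTCH1 was not called (0.02, 95% interval -0.05 to 0.09, adjusted p = 0.642). The lines differed by 0.11 ± 0.03 (adjusted p = 0.00638), a call that ended without C4 replicate 3 (0.0585, in a range of 0.000415 to 0.0585).

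NOTCH2 (ENSG00000134250.19, chromosome 1, 119911553 to 120069626) had log2 values of 14.64, 14.52 and 14.53 in WT, 14.59, 14.61 and 14.59 in B3 and 14.65, 14.69 and 14.79 in C4. C4 lay above WT by a narrow margin and B3 lay within the WT range. NOTCH2 rose by 0.15 ± 0.03 in C4 (limma adjusted p = 0.000395), to 111% of WT (106% to 116%), and was not called in B3 (0.04, -0.03 to 0.10, adjusted p = 0.373). Without WT replicate 1 it was called in B3, at 0.0323 in a range of 0.0323 to 0.779. The lines differed by 0.11 ± 0.03 (adjusted p = 0.00487), a call that ended without C4 replicate 3 (0.0619, in a range of 0.000521 to 0.0619). The NOTCH2NL genes are near-identical copies of its first exons, so the counting could have split some NOTCH2 reads, and its value is uncertain to that extent.

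The target genes did not move as a group. HES1, the bHLH repressor gene whose promoter window is shown above (ENSG00000114315.3, chromosome 3, 194136145 to 194138732), had log2 values of 12.52, 12.56 and 12.58 in WT, 12.53, 12.57 and 12.52 in B3 and 12.57, 12.42 and 12.49 in C4. All 3 groups overlapped. The difference from WT was -0.01 in B3 (95% interval -0.08 to 0.05, limma adjusted p = 0.763) and -0.06 in C4 (-0.13 to 0.00, adjusted p = 0.104), so its level in B3 lay between 94.8% and 104% of WT. In C4 HES1 was called without WT replicate 1 (0.0470) or C4 replicate 1 (0.00781, with a difference of -0.0990), in a range of 0.00781 to 0.562. Between the lines it was not called (-0.05, -0.11 to 0.02, adjusted p = 0.203), except without C4 replicate 1 (0.0189, in a range of 0.0189 to 0.800).

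HEY1, the other abundant bHLH repressor gene of the set, went opposite ways in the lines (ENSG00000164683.16, chromosome 8, 79764010 to 79767863). Its log2 values were 11.06, 11.18 and 11.18 in WT, 11.56, 11.63 and 11.57 in B3 and 11.05, 11.03 and 10.93 in C4. B3 was far above the other groups, and the highest C4 library lay just under the lowest WT library. HEY1 rose by 0.45 ± 0.04 in B3 (log2, SE, n = 3 per group, limma adjusted p = 1.56e-09), to 137% of WT (129% to 144%). In C4 it fell by 0.13 on the log2 scale (SE 0.04, adjusted p = 0.00505), to 91.1% (86.2% to 96.3%). The lines differed by -0.58 ± 0.04 (adjusted p = 7.28e-12), the largest difference between B3 and C4 among the 9 genes.

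NRARP encodes an ankyrin-repeat protein that binds the intracellular domain of Notch and limits its activity (ENSG00000198435.3, chromosome 9, 137300482 to 137302251). Its log2 values were 6.45, 6.34 and 6.40 in WT, 6.42, 6.44 and 6.30 in B3 and 6.16, 6.24 and 6.19 in C4. The C4 libraries lay below all others, and WT and B3 overlapped. NRARP fell in C4 by 0.20 on the log2 scale (SE 0.04, limma adjusted p = 0.000351), to 87.1% of WT (82.0% to 92.6%), and by 0.19 against B3 (SE 0.04, adjusted p = 0.00058). It was not called in B3 (-0.01, 95% interval -0.10 to 0.08, adjusted p = 0.874).

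**Figure D2:**
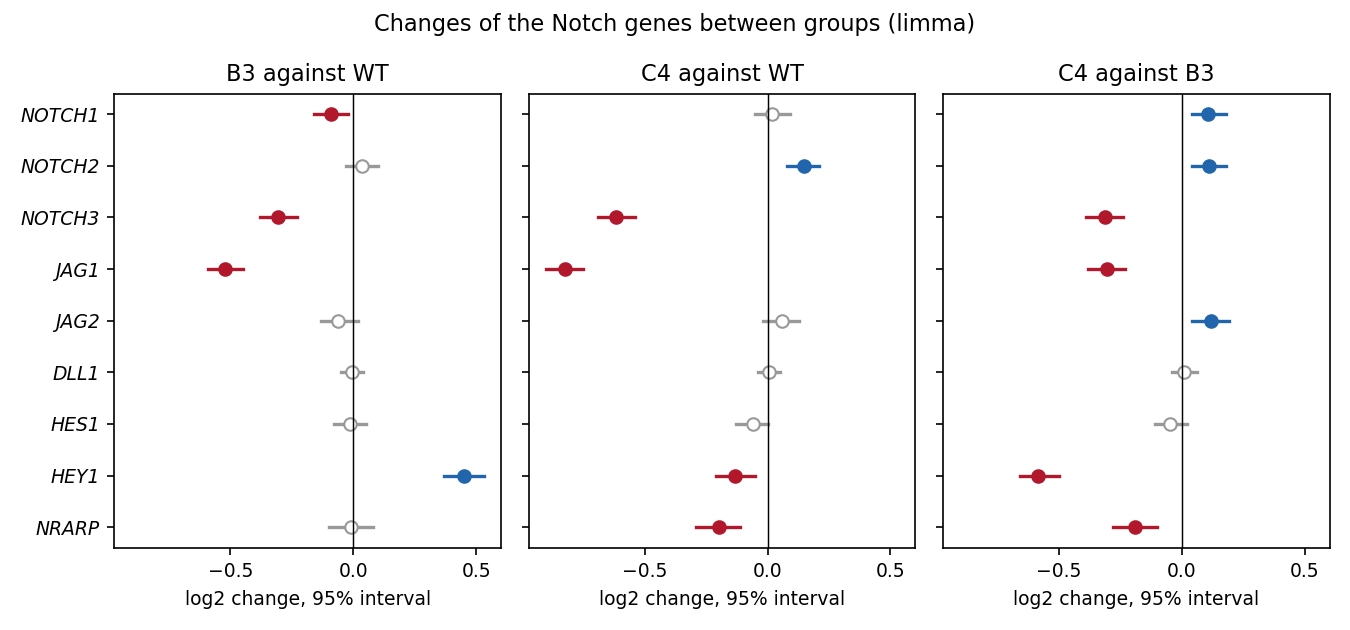
Log2 change of the 9 Notch genes (horizontal axis) with its 95% interval from limma in B3 against WT, C4 against WT and C4 against B3; filled points passed an adjusted p of 0.05, red lower and blue higher, and open grey points did not. JAG1 and NOTCH3 lie left of 0 in all 3 panels, and HEY1 is right of 0 in B3 at 0.45 and left of 0 in C4 at -0.13.

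Between the lines, 7 of the 9 genes were called in C4 against B3 (77.8%, where 56.4% of all genes were called, 28.6% higher and 27.8% lower). NOTCH1, NOTCH2 and JAG2 were higher in C4, and JAG1, NOTCH3, HEY1 and NRARP were lower. JAG1, NOTCH3 and HEY1 were called with a difference of at least 0.25 on the log2 scale, as were 16.3% of all genes tested. The median change of the 9 genes was -0.05. The groups did not overlap for the same count of genes as were called, 4 for B3, 5 for C4 and 7 for C4 against B3, where 53.8%, 60.7% and 62.3% of all genes had groups that did not overlap.

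Some stretches of chromosomes are shifted as a whole in these lines, so each gene was set beside the tested genes within 5 Mb on each side. For JAG1 the 23 neighbours had a median change of 0.02 in B3 and 0.04 in C4, and no neighbour fell as far as JAG1 in either line. The lowest neighbour was at -0.20 in B3 and -0.41 in C4. NOTCH3 lies among 233 tested neighbours with a median that rounded to 0.00 in B3 and was 0.01 in C4. Of these, 10 in B3 and 3 in C4 were as low as NOTCH3 or lower. For HEY1, on chromosome 8, the 26 neighbours had a median of -0.17 in C4, and 16 were called lower and 3 higher, so the C4 value of HEY1 (-0.13) lay within a stretch that was lower as a whole. In B3 the same neighbours had a median of -0.02, and none was as high as HEY1. NRARP had 95 neighbours with a median change that rounded to 0.00 in C4, and 10 of them were as low or lower. Around the 8 genes other than HEY1 the medians lay between -0.06 and 0.04 in the 3 comparisons.

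**Figure D3:**
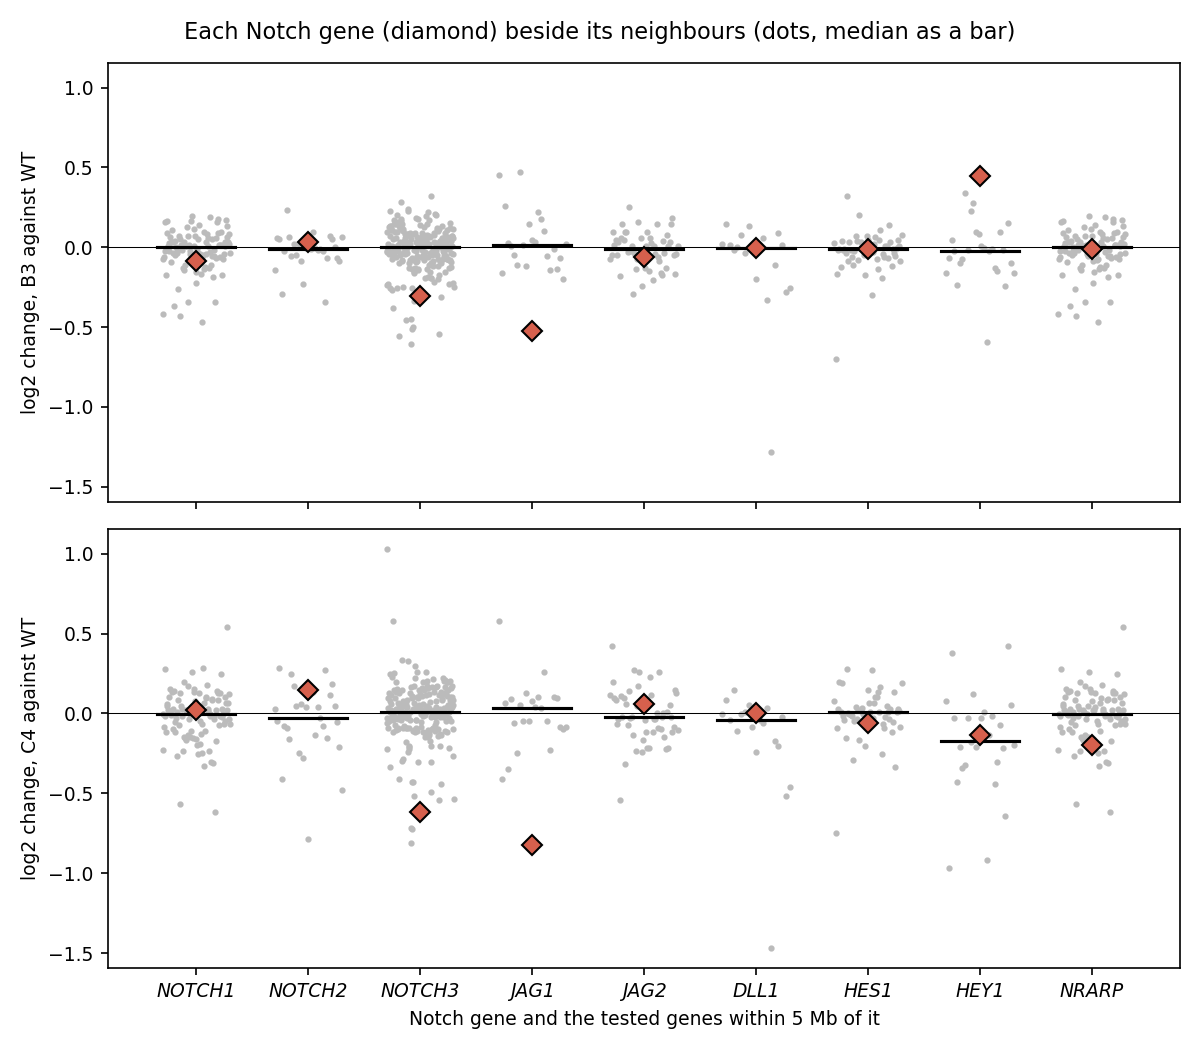
Log2 change against WT (vertical axis) of each Notch gene (diamond) and of the tested genes within 5 Mb of it (dots, with their median as a bar), for B3 in the upper panel and C4 in the lower. JAG1 lies below all 23 of its neighbours in both lines, while HEY1 in C4 lies close to its neighbours' median of -0.17.

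The rest of the pathway was described with 9 lists ordered by role, in all 110 symbols, of which 105 had a row and 102 were tested. Of these, 22 were higher and 36 lower in B3 (56.9% called, against 47.9% of all genes), 30 higher and 37 lower in C4 (65.7%, against 56.2%), and 30 higher and 33 lower in C4 against B3 (61.8%, against 56.4%). Their median change was -0.03, -0.02 and -0.01 in turn, where all genes had medians that rounded to 0.00. Over all genes tested, 23.2% were called higher and 24.6% lower in B3, and 28.2% and 28.0% in C4. The counts of each list below are to be read beside these shares.

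Among other receptors, ligands and modulators, 3 of 11 were higher and 7 lower in B3, where 23.2% of all genes were higher and 24.6% lower. In C4 2 were higher and 5 lower, where the shares of all genes were 28.2% and 28.0%. EGFL7, a secreted protein that can bind Notch, fell in both lines, by 0.43 ± 0.04 in B3 and by 0.57 ± 0.04 in C4 on the log2 scale (limma adjusted p = 1.22e-09 and 5.06e-12). Its log2 values were 11.51 to 11.61 in WT, 11.08 to 11.18 in B3 and 10.95 to 11.03 in C4. The Delta-like ligand gene DLL3 changed by -0.39 ± 0.04 in B3 and -0.34 ± 0.04 in C4, from a low WT level of 7.33 to 7.38. DNER, a neuronal membrane protein with EGF repeats, changed by -0.38 ± 0.03 in B3 and -0.33 ± 0.03 in C4. Its 45 neighbours had medians of 0.07 in B3 and -0.11 in C4. The matrix protein gene THBS2 changed by -0.28 ± 0.03 in B3 and -0.52 ± 0.03 in C4. NOV, a matricellular protein gene on chromosome 8, rose by 0.24 ± 0.06 in B3 and 0.43 ± 0.06 in C4. Its 33 neighbours had medians of 0.04 in B3 and -0.23 in C4. Between the lines, DLK2 was higher in C4 by 0.25 ± 0.05 and DLL4, the ligand best known from endothelial tip cells, was lower by 0.20 ± 0.04 on the log2 scale.

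The list of other HES and HEY genes also held the bHLH repressor genes BHLHE40 and BHLHE41. Of its 6 genes tested, 5 were lower and 0 higher in B3, where 24.6% of all genes were lower. In C4 5 were lower and 1 higher, where 28.0% of all genes were lower. HES4, HES7, HEY2 and BHLHE41 were lower in both lines, and HES6 was lower in C4 and not called in B3. BHLHE40 was lower in B3 and higher in C4. The list is short, and it was chosen with results of these data known. HEY2, a close relative of HEY1, had log2 values of 12.31, 12.38 and 12.39 in WT, 12.20, 12.17 and 12.20 in B3 and 12.09, 12.05 and 12.02 in C4. The groups did not overlap, and HEY2 changed by -0.17 ± 0.03 in B3 and -0.31 ± 0.03 in C4 (limma adjusted p = 2.76e-05 and 2.93e-09). HES7, known from the segmentation clock, changed by -0.36 ± 0.05 and -0.43 ± 0.05. BHLHE41, a bHLH repressor of the circadian clock, changed by -0.51 ± 0.04 in B3 and -0.76 ± 0.04 in C4. BHLHE41 lies on chromosome 12, where its 40 neighbours had a median of -0.27 in B3. HES6, an antagonist of HES1, was lower in C4 than in B3 by 0.21 ± 0.03 on the log2 scale, near its 50 neighbours' median of -0.20, and BHLHE40 was higher by 0.22 ± 0.02.

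Genes that modify the receptors and ligands moved both ways. Of 12 glycosylation and maturation genes, 1 was higher and 3 lower in B3, and 5 were higher and 4 lower in C4. LFNG, the Fringe enzyme that shifts receptors towards Delta ligands, rose in C4 by 0.23 ± 0.05 and was 0.32 ± 0.05 higher than in B3, where its 68 neighbours had a median difference of 0.15. The xylosyltransferase gene GXYLT1 changed by -0.14 ± 0.03 in B3 and 0.19 ± 0.03 in C4. Its 28 neighbours on chromosome 12 had a median of -0.19 in B3. RFNG and MFNG, the other Fringe genes, changed by -0.14 ± 0.03 and -0.12 ± 0.03 in B3, and by -0.14 ± 0.03 and -0.12 ± 0.03 in C4.

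Of 8 genes for ligand ubiquitination and endocytosis, which ligands need in order to pull on receptors, 4 were higher and 3 lower in B3 and 4 higher and 1 lower in C4. The ubiquitin ligase gene NEURL1B had log2 values of 10.09, 9.97 and 9.99 in WT, 10.21, 10.17 and 10.09 in B3 and 10.60, 10.63 and 10.72 in C4. It rose by 0.63 ± 0.04 in C4 (limma adjusted p = 2.83e-11), to 155% of WT, and by 0.14 ± 0.04 in B3 (adjusted p = 0.0117). The B3 call ended without WT replicate 2 (0.0579) or B3 replicate 1 (0.0662). MIB1, the main ligase for Notch ligands, changed by -0.12 ± 0.02 in B3, and the epsin gene EPN1 by 0.13 ± 0.02.

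Of 11 receptor cleavage genes, 6 were lower and 2 higher in B3, and 5 were lower and 3 higher in C4, where 24.6% and 28.0% of all genes were lower. Their median change was -0.06 in B3 and -0.04 in C4. TSPAN14, a tetraspanin that guides the protease ADAM10, had log2 values of 14.70 to 14.83 in WT, 14.35 to 14.46 in B3 and 14.41 to 14.46 in C4, below WT in both lines. It changed by -0.36 ± 0.03 in B3 and -0.31 ± 0.03 in C4 (limma adjusted p = 1.3e-09 and 7.94e-09). The protease gene ADAM17 changed by -0.20 ± 0.03 in B3 and -0.27 ± 0.03 in C4. The gamma-secretase subunit gene APH1B changed by 0.23 ± 0.03 in B3 and 0.15 ± 0.03 in C4.

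Of 13 trafficking and turnover genes, 2 were higher and 4 lower in B3 and 3 were higher and 4 lower in C4. DTX1, a Deltex ubiquitin ligase that binds Notch and is a Notch target in lymphocytes, had log2 values of 8.88, 8.88 and 9.10 in WT, 8.39, 8.44 and 8.39 in B3 and 8.24, 8.21 and 8.08 in C4. WT was highest and C4 lowest with no overlap, the order of JAG1 and NOTCH3. DTX1 changed by -0.55 ± 0.06 in B3 and -0.78 ± 0.06 in C4 (limma adjusted p = 4.61e-08 and 6.75e-11), and the lines differed by -0.23 ± 0.06 (adjusted p = 0.00166). Its relatives DTX3L and DTX4 rose in C4, by 0.47 ± 0.03 and 0.36 ± 0.05, and were 0.47 ± 0.03 and 0.51 ± 0.05 higher there than in B3.

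The nuclear genes moved both ways. RBPJ, the DNA-binding partner of all Notch receptors, had log2 values of 14.44, 14.50 and 14.47 in WT, 14.50, 14.53 and 14.47 in B3 and 14.33, 14.39 and 14.37 in C4. C4 lay below both other groups. RBPJ changed by -0.10 ± 0.02 in C4 (limma adjusted p = 0.000999), where its 18 neighbours had a median of -0.14, and was not called in B3 (0.03, 95% interval -0.02 to 0.08, adjusted p = 0.303). With every library at the same total it was called in B3, at 0.0302 in a range of 0.0302 to 0.692. The coactivator gene MAML1 rose by 0.14 ± 0.03 in B3 and 0.16 ± 0.03 in C4, and the acetyltransferase gene EP300 by 0.22 ± 0.03 in C4. Of the 9 activator genes, 1 was higher and 0 lower in B3, and 4 were higher and 3 lower in C4. Of 18 repressor complex genes, 6 were higher and 4 lower in B3 and 6 higher and 3 lower in C4. TLE2, a Groucho-family corepressor gene, changed by -0.29 ± 0.02 in B3 and was not called in C4 (-0.05, limma adjusted p = 0.0613). The demethylase gene KDM5A changed by -0.29 ± 0.02 in B3 and 0.12 ± 0.02 in C4. Its 30 neighbours on chromosome 12 had medians of -0.19 in B3 and 0.04 in C4. BEND6, which binds RBPJ, changed by -0.19 ± 0.05 in B3 and 0.31 ± 0.05 in C4. Its 26 neighbours on chromosome 6 had medians of -0.09 in B3 and 0.03 in C4.

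Further genes reported as Notch targets in some tissues gave 3 higher and 5 lower of 15 in B3, and 2 higher and 8 lower in C4. Of all genes, 24.6% were lower in B3 and 28.0% in C4. FABP7, the fatty acid binding protein of radial glia, had log2 values of 14.84, 14.99 and 14.99 in WT, 14.54, 14.53 and 14.54 in B3 and 15.00, 14.92 and 14.94 in C4. It was low in B3 alone: it changed by -0.40 ± 0.03 there (limma adjusted p = 3.44e-10), and C4 was 0.42 ± 0.03 higher than B3. SNAI2, a transcription factor of mesenchymal cells, rose by 0.33 ± 0.04 in B3 and changed by -0.34 ± 0.04 in C4, the same opposite directions as HEY1. Both lie on chromosome 8, and the 10 neighbours of SNAI2 had a median of -0.23 in C4. MYC, also on chromosome 8, changed by -0.40 ± 0.06 in C4, where its 33 neighbours had a median of -0.27. Neighbours were not taken out of these changes, so how much of each belongs to its stretch was not tested.

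**Figure D4:**
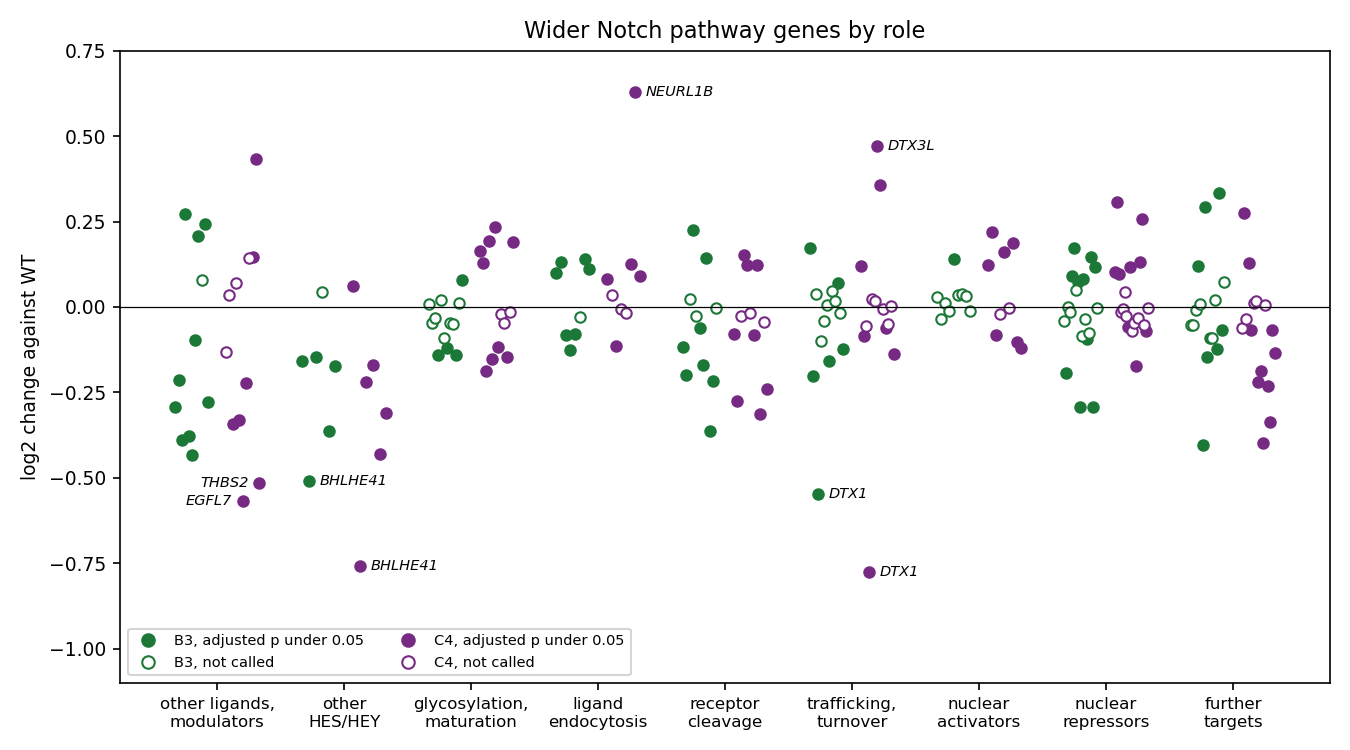
Log2 change against WT (vertical axis) of the 102 tested genes of the wider pathway, by role (horizontal axis), in B3 (green) and C4 (purple); filled points passed an adjusted p of 0.05 and open points did not. DTX1 and BHLHE41 lie lowest in both lines, and NEURL1B is highest in C4 at 0.63.

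The genes whose profile over the 9 libraries was most like that of a Notch gene were sought among 1514 genes that spanned 0.5 or more on the log2 scale and averaged 50 or more as antilogs. These correlations rest on 3 groups that differ, so they describe the order of the groups more than that of single libraries. For JAG1 they were PRLR, JAM2, MGP and SDC3, with Pearson's r of 0.997, 0.995, 0.994 and 0.992. MGP, a matrix protein gene, changed by -0.70 in B3 and -1.05 in C4, more than JAG1 in both. For NOTCH3 they were the integrin gene ITGB3, THBS2, the receptor kinase gene MET and the guidance ligand gene SLIT2, with r of 0.998, 0.998, 0.998 and 0.997. For HES1 the highest r, among 1515 genes, was 0.849, with a row named MIR3654. ALDH1A1 followed at 0.768, HNF4G at 0.735 and MIR4426 at 0.719. HES1 itself spanned only 0.16, and genes that flat were left out of the search. These lower values therefore cannot show whether HES1 has a close match.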

How the data were processed

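RNA of LN229 cells was measured in 9 libraries, 3 each of WT, B3 and C4. The tools named, per the submitters' processing notes, were DESeq2, Subread 1.6.3 and STAR 2.7.3a, with build hg38 and no role or order for any of them. The deposited values are log2 values that the authors scaled between libraries. They have the shape of a regularized-log transform, which is inferred from the values and named in no source used here. Reads could not be recovered, so depth is unknown and no count test was run.

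Genes averaging 10 or more as antilogs (16457 of 19356) entered 1 fit of all libraries (limma 3.58.1, R 4.3.3, intensity trend on). Two-sided tests were used, with Benjamini-Hochberg adjustment over all genes tested and calls at 0.05. The fit was tested on simulated data. The members, the wider lists, the tests and the alternatives were chosen with earlier results of these data known. All listed Notch genes, ARNT2, RBPJ and MAML1 are named. Of each wider list, up to 3 called genes per comparison with the largest change and no overlap between groups are named, and 4 genes most alike for JAG1, NOTCH3 and HES1. Positions are from GENCODE 29 on GRCh38 and held 92.6% of tested symbols once. Windows of 2 and 10 Mb were alternatives, beside other pseudocounts, filters and scalings, moderation settings, a replicate block and leaving out each library.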

Additional observations from a re-analysis of the deposited data

Results flagged for a closer look

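The changes against WT differed between B3 and C4 for 7 of the 9 Notch genes, by the limma test of C4 against B3, which called 56.4% of all genes. That contrast is the test of the difference, since both lines share the WT libraries. NOTCH3 and JAG1 differed by -0.31 and -0.30 on the log2 scale, in the direction both had against WT. HEY1 differed by -0.58, with B3 above WT and C4 below it, and the genes within 5 Mb of it had a median difference of -0.15. NRARP differed by -0.19. NOTCH1, NOTCH2 and JAG2 differed by 0.11, 0.11 and 0.12, with C4 higher. The calls of NOTCH1 and NOTCH2 ended without C4 replicate 3, at adjusted p = 0.0585 and 0.0619. Groups of 3 libraries were too small for a test of single outlying libraries.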

How the results depend on the processing

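The changes of JAG1, NOTCH3 and HEY1 in B3 and in C4 against WT and between the lines kept their direction under each alternative run. They also stayed called, except HEY1 in C4 where a change of at least 0.25 was also asked for. JAG1 ranged from -0.55 to -0.48 in B3 and -0.86 to -0.78 in C4, NOTCH3 from -0.33 to -0.27 and -0.63 to -0.59, and HEY1 from 0.41 to 0.48 and -0.17 to -0.10, where the adjusted p of HEY1 in C4 reached 0.0493. With that size asked for, 2 Notch genes were called in C4, where 15.2% of all genes tested were. In C4 against B3, 3 were called, where 16.3% of all genes were. In B3, JAG1, NOTCH3 and HEY1 were called at that size, as were 9.31% of all genes. Leaving out each library gave 3 to 5 called Notch genes in B3, 5 to 6 in C4 and 5 to 8 between the lines. Of the 16457 genes tested, the same fits called 6944 to 8016 in B3, 8387 to 9272 in C4 and 8363 to 9596 between the lines. The replicate block, with 4, 5 and 7 Notch genes called, changed no call of a named gene. Libraries were not paired by their numbers (correlations of same-numbered libraries from -0.229 to 0.016). Signs turned only for values near 0 that were not called. In B3, the same total gave 0.0288 for DLL1, 0.0201 for HES1 and 0.0234 for NRARP, the same median 0.0095, 0.0008 and 0.0041, and quantile normalization 0.0023 for HES1 and 0.0195 for NRARP. Over the fits without 1 library, B3 values reached from -0.0188 to 0.0143 for DLL1, -0.0299 to 0.0005 for HES1 and -0.0398 to 0.0332 for NRARP, C4 values from -0.0101 to 0.0582 for NOTCH1 and -0.0202 to 0.0195 for DLL1, and the differences between the lines from -0.0158 to 0.0238 for DLL1. The medians of neighbours lay between -0.20 and 0.07 with windows of 2 Mb and -0.19 and 0.02 with 10 Mb; the HEY1 median in C4 was -0.20 with 2 Mb. Filters of 50 left out DLL1 and JAG2, so they have no value there. The alternatives with edgeR and DESeq2 were not run, since reads could not be recovered.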

Other observations

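Values of 2 Notch pathway genes that the naming rule does not cover follow; they were chosen after their values were seen. NOTCH4, the remaining receptor gene, had log2 values of 8.55 to 8.62 in WT, 8.63 to 8.70 in B3 and 8.64 to 8.81 in C4. By limma it was higher in C4 (0.15 ± 0.05, n = 3 per group, adjusted p = 0.0132) and was not called in B3 (0.08, adjusted p = 0.201). NOTCH2NL, the partial copy of NOTCH2, ranged from 9.95 to 10.32 in WT, 10.11 to 10.48 in B3 and 10.18 to 10.44 in C4, so its groups overlapped. It passed the test in B3 (0.21 ± 0.08, adjusted p = 0.0430) and not in C4 (0.14, adjusted p = 0.156). Its libraries varied more than those of NOTCH2, and reads shared by the copies could have been counted for either.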
